A study of Mus musculus with 11 samples.

Results

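The comparison described here is the effect of a hairpin against Ror2 on luminal cells of the mouse mammary gland, read from the 2 arrays titled luminal shROR2 and the 3 arrays titled luminal shLUC, 5 of the 11 arrays of the study. Primary mouse mammary epithelial cells were infected in suspension with a lentivirus and injected in matrigel, and the outgrowths they formed carried either the hairpin against Ror2 (shROR2) or the hairpin labelled shLUC, the control. Luminal and basal cells were then separated by flow cytometry on CD24 and CD29, and their amplified RNA was labelled with Cy3 and read on one-colour Agilent arrays. Every outgrowth carried a virus and a hairpin, those labelled shLUC included. The labels do not give strain, age, host, hairpin sequence, or the share of cells that carried the virus. They speak of biological triplicates, and 2 luminal shROR2 arrays are analysed here. The study's stated aim was to look for functions of Ror2 that are particular to one compartment. The 6 basal arrays (3 shLUC and 3 shROR2) are used below to give each gene its level in the neighbouring cell layer and to share the estimate of spread.

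Ror2 is a receptor tyrosine kinase that binds Wnt5a and acts mainly in noncanonical Wnt signalling, which steers cell polarity, the actin cytoskeleton and movement through Dishevelled, small GTPases and the ROCK kinases rather than through beta-catenin. The mammary duct is a bilayer of an inner luminal layer and an outer basal layer of contractile myoepithelial cells. Luminal cells comprise hormone-sensing cells, which carry the receptors for estrogen and progesterone, and progenitor or alveolar cells, which make milk proteins.

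Among the genes with the smallest p-values below are members of a cluster of protease inhibitors and contractile genes, and stretches upstream of 3 of these genes are shown because they place the genes on the genome and hold motifs of known response elements. All come from RefSeq sequence of mouse build GRCm38.p6, run 5′ to 3′ on the plus strand and end where the annotated gene begins. For Serpina3f the stretch is chr12:104214294-104214543, for its neighbour Serpina3i chr12:104262872-104263044 and for Myl9 chr2:156775214-156775407. Capitals mark a STAT-type motif, TTCNNNGAA, in both Serpina3 genes and a CArG box, the element bound by serum response factor, in Myl9. Both motifs were searched on both strands, read the same on each and did not overlap.
Serpina3f: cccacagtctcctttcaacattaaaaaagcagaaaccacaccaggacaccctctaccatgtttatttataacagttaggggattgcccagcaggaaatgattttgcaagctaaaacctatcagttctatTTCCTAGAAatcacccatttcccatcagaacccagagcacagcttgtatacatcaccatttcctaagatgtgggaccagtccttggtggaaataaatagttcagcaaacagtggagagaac
Serpina3i: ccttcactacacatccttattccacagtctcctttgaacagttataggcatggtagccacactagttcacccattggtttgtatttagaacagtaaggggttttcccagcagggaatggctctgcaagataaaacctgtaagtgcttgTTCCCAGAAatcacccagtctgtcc
Myl9: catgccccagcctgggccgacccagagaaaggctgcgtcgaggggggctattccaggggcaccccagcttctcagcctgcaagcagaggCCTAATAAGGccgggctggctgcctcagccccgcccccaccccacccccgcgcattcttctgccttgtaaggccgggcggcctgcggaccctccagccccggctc
Of 32851 promoter windows of 300 bases in the reference table, 8.3% hold the STAT-type motif and 1.63% a CArG box. Over the whole windows, those of Serpina3f and Serpina3i were identical at 83.3% of 269 aligned bases, whereas that of another member, Serpina3n, which holds neither motif, matched Serpina3f at 71.2% of 281. A match describes letters in this stretch and was not tested for binding.

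Expression is given as scaled signal, the background-subtracted processed signal of an array divided by the 75th percentile of that array, so that 1 means as bright as the 75th percentile. Differences are log2 differences, shROR2 minus shLUC, ± the standard error of a limma fit over all 11 arrays (n = 3 shLUC and 2 shROR2), and adjusted p is limma's, Benjamini-Hochberg over 29429 features (14068 named genes and 15361 unnamed probes). A feature was called at an adjusted p under 0.05. Between 53% and 54.3% of probes were well above background on the luminal arrays. The labelled compartments were checked by keratins. Krt18, a luminal keratin, read 206 to 218 on luminal shLUC arrays against 28.5 to 29.9 on basal shLUC arrays, and Krt5, a basal keratin, read 0.657 to 0.772 against 149 to 188. Luminal arrays correlated with each other at 0.978 to 0.983 across features, and shLUC arrays correlated with shROR2 arrays (0.978 to 0.983) over nearly the same range as with each other (0.981 to 0.983). On the first principal component of the 5 arrays, which held 32% of the variance, both shROR2 arrays lay at 36.9 and 38.4 and the shLUC arrays at -43.1, -27.2 and -5.01. The standard errors and p-values rest on a spread between arrays that was pooled over all 11 arrays, basal ones included. They are therefore not the scatter of the luminal arrays alone. Among bright features the median standard deviation was 0.101 in luminal shLUC and 0.0893 in luminal shROR2. It was 0.108 in basal shLUC and 0.208 in basal shROR2. The number of arrays limits the precision of the p-values. Values of a tissue fraction cannot tell fewer cells of a type from less RNA per cell.

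The hairpin's target was too dim to check the knockdown in this compartment. The single Ror2 probe read 0.0275, 0.0293 and 0.0294 on the luminal shLUC arrays and 0.0288 and 0.0725 on the shROR2 arrays, below the dimmest signal well above background (0.108 to 0.122 on those arrays), and was well above background on 0 of the 5. It was not lower on the shROR2 arrays: the first overlapped the shLUC arrays and the second was the highest of the 5. The log2 difference was 0.67, with p = 0.3 by a two-sided exact permutation test of 10 regroupings, whose smallest possible p is 0.1, and it fell to 0.0021 without luminal shROR2 replicate 2. The labels are therefore not checked by the targeted gene, and where on the transcript the probe lies was not examined. In basal cells the same probe read 0.0861 to 0.0947 with shLUC and 0.026 to 0.145 with shROR2.

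Across all features, 1 was called, the serine protease inhibitor gene Serpina3f, which rose in shROR2 (0.0034% of features tested), and 0 were called lower (0%). At an unadjusted p under 0.05 there were 847 higher (2.88%) and 785 lower (2.67%), 1632 of 29429 in all (5.55%). That limma count depended on the pooled spread. It was 2958 in a fit of the 5 luminal arrays only and 2930 without the basal shROR2 arrays, with 0 called in either fit. The 2 shROR2 arrays lay above all 3 shLUC arrays at 4232 features (14.4%) and below all 3 at 4305 (14.6%); these shares are the background against which the counts of genes "above" or "below all shLUC arrays" below are to be read. The median log2 difference over all features was -0.0012, with quartiles at -0.17 and 0.17. At 851 features the difference passed 1 in either direction, and 308 of these were measured well above background in both groups.

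Serpina3f belongs to a family of secreted inhibitors of serine proteases that lie side by side on chromosome 12 and are known as acute-phase and cytokine-responsive genes. Its scaled signal was 0.307, 0.289 and 0.345 on the luminal shLUC arrays and 1.035 and 0.968 on the shROR2 arrays. All 5 were above background, and the groups were separated by a wide gap. The log2 difference was 1.68 ± 0.14 (adjusted p = 0.0335), about 3.2-fold. Under the other background correction (normexp) the difference was 0.88, and it was 0.84 in a fit of the authors' deposited table, smaller by over 1.5 times and still called (adjusted p = 0.0156 and 0.0154). Basal cells carried far more of it, 5.82 to 6.57 with shLUC and 6.66 to 8.58 with shROR2, a basal difference of 0.28 (adjusted p = 0.34); the luminal difference exceeded the basal one by 1.40 ± 0.19, which was not called (adjusted p = 0.1215). Second probes of Serpina3f and of Serpina3i were not well above background on any luminal array and bear on neither direction. Since family members are alike in sequence, signal from one gene on another's probe was not tested.
Serpina3i, also well above background on all 5 arrays, read 0.188, 0.134 and 0.156 with shLUC and 0.3615 and 0.33 with shROR2, a difference of 1.13 ± 0.17 that was not called (adjusted p = 0.155) and was 0.36 after normexp. Of the 5 family members tested, 3 lay above all shLUC arrays, the third being Serpina3n, which was not well above background on any luminal array. Serpina3b and Serpina3h overlapped, with differences of -0.16 ± 0.20 and 0.05 ± 0.21.
The call on Serpina3f was narrow. The difference was 1.75 between the arrays on slide 1 and 1.62 between those on slide 2, and the adjusted p was 0.0704 with slide as a block. Leaving out single arrays kept the difference between 1.62 and 1.75 but lost the call except without basal shROR2 replicate 1 (adjusted p = 0.0377) or replicate 2 (0.0345): it was 0.0976, 0.167 and 0.0679 without luminal shLUC replicates 1, 2 and 3, 0.124 and 0.205 without luminal shROR2 replicates 1 and 2, 0.14, 0.117 and 0.138 without basal shLUC replicates 1, 2 and 3, and 0.052 without basal shROR2 replicate 3.

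**Figure D1:**
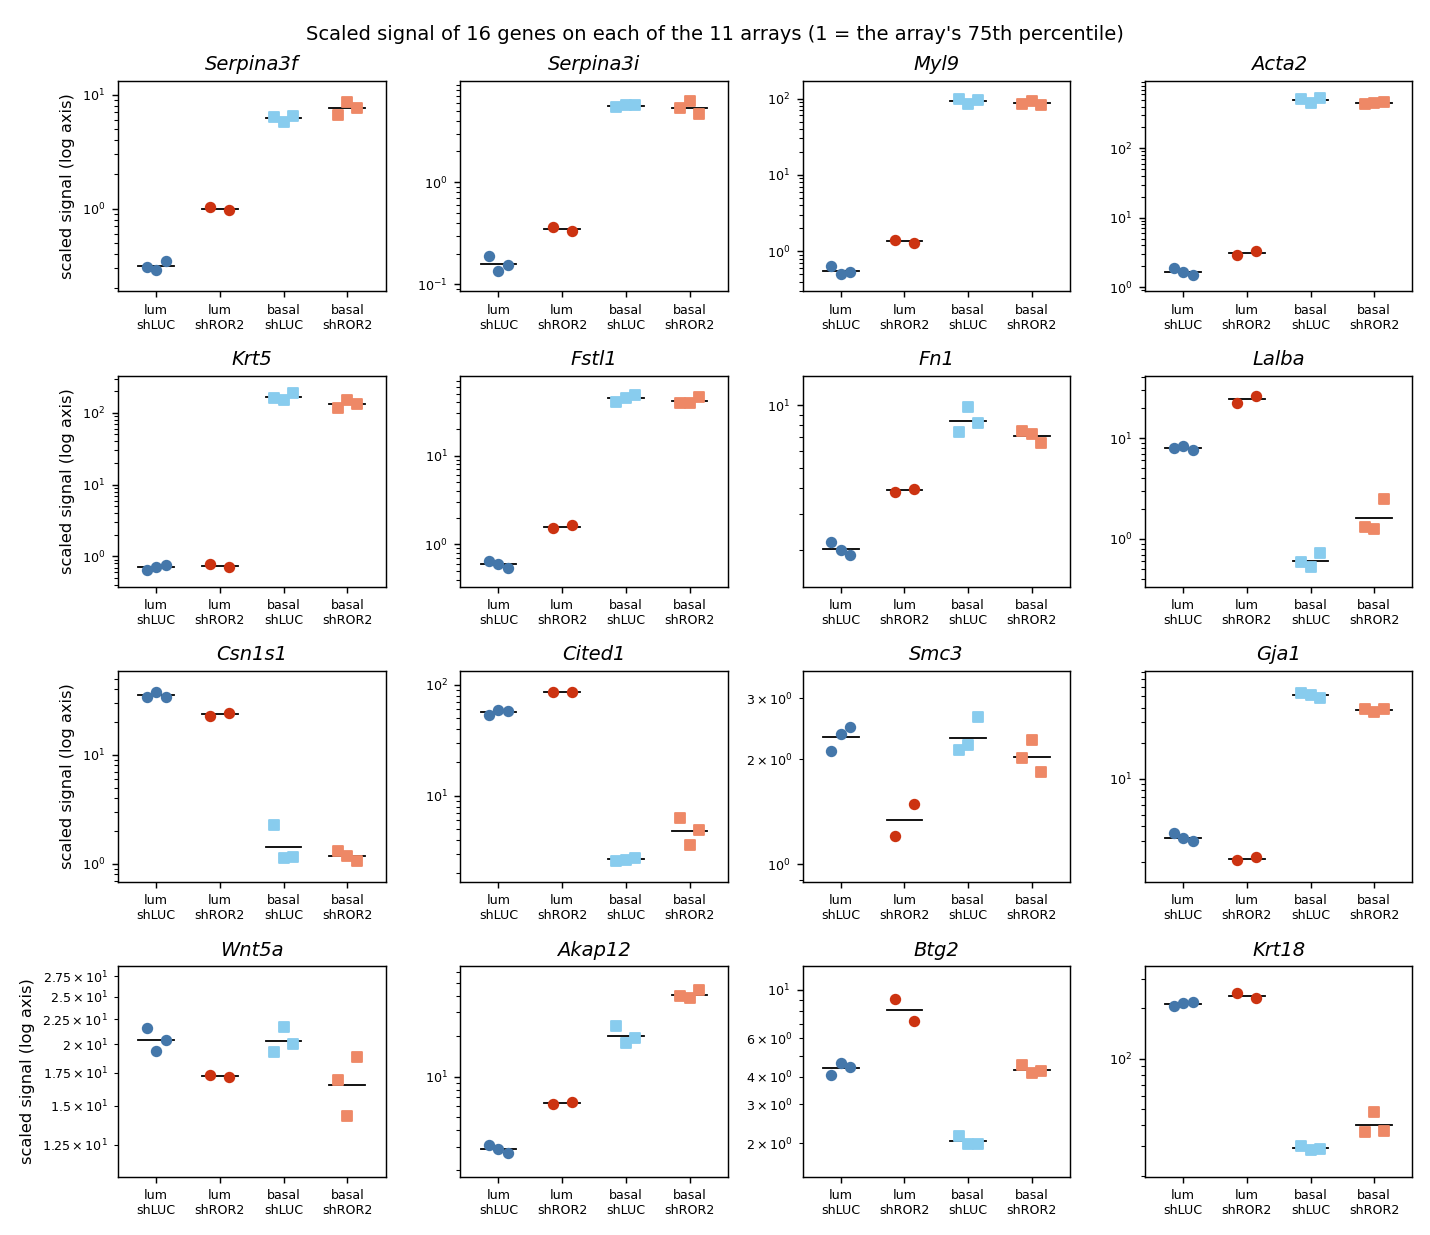
Scaled signal (log axis; 1 is the array's 75th percentile) of 16 genes on each array, luminal as circles and basal as squares, with each group's geometric mean as a line. Serpina3f, Myl9, Fstl1 and Lalba lay higher on both luminal shROR2 arrays than on all 3 luminal shLUC arrays, Csn1s1, Smc3 and Gja1 lower, and Krt5 overlapped.

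Next in order of p among named genes came 3 that basal cells express strongly and luminal cells weakly. Fstl1, a secreted follistatin-like glycoprotein, read 0.654, 0.605 and 0.545 on the luminal shLUC arrays and 1.51 and 1.645 on the shROR2 arrays. Myl9, the regulatory myosin light chain of smooth muscle, read 0.639, 0.507 and 0.534 and 1.415 and 1.29. In both genes the gap between the groups was wider than the range within either, with differences of 1.39 ± 0.14 and 1.28 ± 0.14, and both stood just outside the threshold (adjusted p = 0.0533 for each). After normexp the differences were 0.85 for Fstl1 and 0.82 for Myl9, and they were 0.80 and 0.78 in a fit of the authors' deposited table, smaller but past the threshold. Snai2, a transcription factor of basal and mesenchymal cells, was not well above background with shLUC (0.0494, 0.0633 and 0.0573) and was with shROR2 (0.137 and 0.163), at least 1.32-fold higher. Its difference was 1.41 in the main fit and 0.12 after normexp. Each "at least" bound, here and below, divides the brighter mean by the mean of, per dim array, the higher of the lowest signal that counts as well above background and the probe's own signal.
Acta2, smooth muscle actin, was higher too, 1.9, 1.63 and 1.51 with shLUC against 2.86 and 3.3 with shROR2 (0.88 ± 0.14, adjusted p = 0.162). So was Sparc, a matrix glycoprotein, at 1.42, 1.49 and 1.26 against 2.01 and 2.25 (0.61 ± 0.13, adjusted p = 0.324). The basal keratins did not follow. Krt5 read 0.657, 0.708 and 0.772 with shLUC and 0.78 and 0.7145 with shROR2, and Krt14 14.6, 16.4 and 14.7 and 16.7 and 12.2; both overlapped, with differences of 0.07 ± 0.15 and -0.10 ± 0.14.
Of 21 myoepithelial markers tested, 8 lay above all shLUC arrays (38.1%, against 14.4% of all features) and 1 below; none was called. Their summed scaled signal without the brightest member, Trp63, was 64.1 to 66.6 on luminal shLUC arrays, 67.3 to 68.9 on shROR2 arrays and 2009 to 2282 on basal shLUC arrays. Trp63 itself is set aside because its probe read about the same in both compartments.

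The luminal difference was also set beside each gene's basal level. On the linear scale, it amounted to 10.96% of the basal shLUC level for Serpina3f, 4.86% for Axl, a receptor tyrosine kinase, and 3.33% for Serpina3i. It came to 2.47% for Fbln2, a matrix protein, and 2.2% for Fstl1. For Sparc it was 0.902%, for Myl9 0.84% and for Acta2 0.282%. For Krt5 it was 0.021% and for Krt14 -0.13%. The 14 myoepithelial markers at least 8-fold brighter in basal than in luminal shLUC cells, and well above background on at least 1 luminal array, had a median of 0.106%, from -2.34% to 0.902%, and the 11 fibroblast markers that met the same rule a median of 1.83%, from -0.699% to 11.4%. The part of basal or other cells in the luminal sort was not tested.

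**Figure D2:**
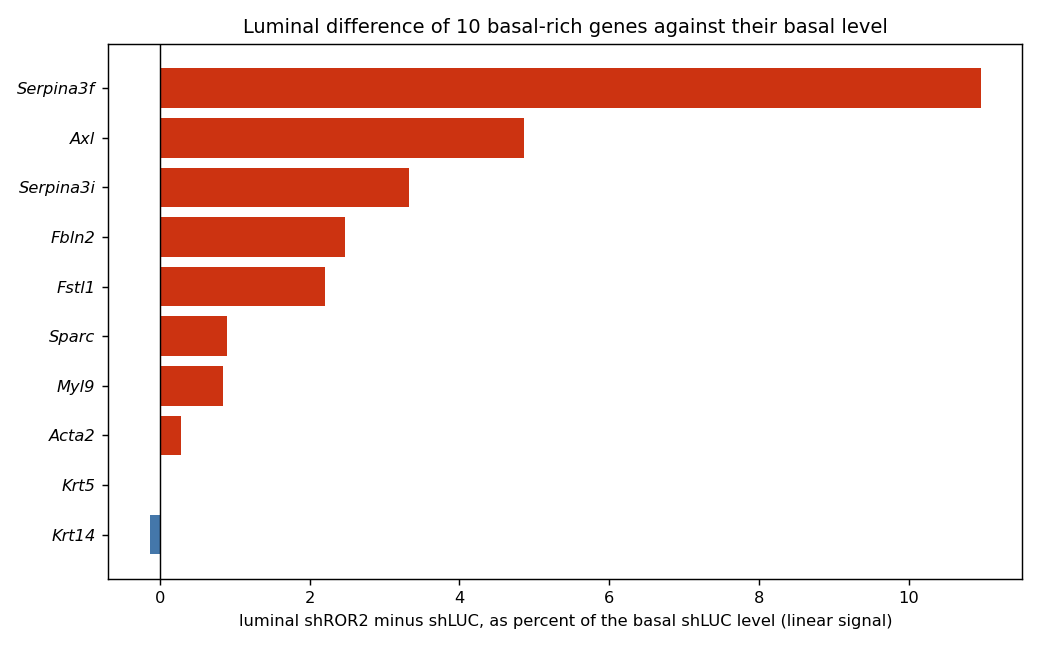
Luminal shROR2 minus luminal shLUC signal, as percent of the same gene's basal shLUC signal (bars, linear scale from 0), for 10 genes brighter in basal cells. The bars run from 10.96% for Serpina3f to 0.282% for Acta2, with Krt5 at 0.021% and Krt14 at -0.13%.

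Matrix genes shared the direction. Fn1, fibronectin, read 2.19, 2.01 and 1.89 with shLUC and 3.84 and 3.965 with shROR2 (0.94 ± 0.14, adjusted p = 0.155). Dcn, the collagen-binding proteoglycan decorin, read 3.48, 3.83 and 3.6 and 6.48 and 6.97 (0.89 ± 0.14, adjusted p = 0.162). Col9a1, a chain of type IX collagen, went from 1.9, 1.62 and 1.8 to 4.16 and 4.245 (1.25 ± 0.18, adjusted p = 0.143); a second, dim Col9a1 probe did not separate the groups (0.133, 0.0945 and 0.139 against 0.12 and 0.132). Itga8, an integrin subunit, read 0.556, 0.422 and 0.505 and 1.03 and 1.03. None of the 4 passed the threshold, and in each the groups did not overlap.
Of 18 fibroblast markers tested, 12 lay above all shLUC arrays (66.7%) and 0 below, with a median difference of 0.62, and their sum went from 15.3 to 15.7 with shLUC to 23.4 to 24.4 with shROR2. Of 19 on the array, 14 were well above background on any luminal array, 12 of them on all 5, Col1a1, Col1a2, Col3a1 and Thy1 included. The 5 markers above background on no luminal array are Lum, Pdgfra, Postn, Dpt and Lox. In basal cells the sum was 135 to 145 with shLUC, so the list as a whole was also brighter in the basal than in the luminal fraction. Of 35 basement membrane and integrin genes, 13 lay above all shLUC arrays (37.1%) and 2 below, with a median of 0.24. Among 22 genes of mesenchymal transition, 8 were above and 1 below, at a median of 0.18. Medians of several lists were smaller after normexp: that of the fibroblast markers was 0.24, of the basement membrane genes 0.12, of the mesenchymal genes 0.059 and of the 5 Serpina3 genes 0.069 (0.81 in the main fit).

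The luminal keratins differed little, while genes of the luminal subtypes differed among themselves. Krt8 read 24.1, 24.2 and 25.3 with shLUC and 24.4 and 24.4 with shROR2, and Krt18 206, 215 and 218 and 246 and 230. The difference was -0.01 ± 0.14 for Krt8, whose arrays overlapped, and 0.16 ± 0.14 for Krt18. Of 20 general luminal markers 5 lay above all shLUC arrays (25%) and 1 below, with a median of 0.037. Cdh1, which encodes E-cadherin, was the lower one, 1.19, 1.15 and 1.09 against 1.04 and 1.02.
Hormone-sensing genes leaned higher. Of 17 tested, 10 lay above all shLUC arrays (58.8%) and 1 below, with a median of 0.21. None was called in the main fit. In basal cells the median of this list was larger, 0.63. Calca, the calcitonin gene, read 2.19, 2.03 and 1.8 with shLUC and 5.54 and 4.885 with shROR2 (1.38 ± 0.44, adjusted p = 0.695). The log2 standard deviation of Calca on the luminal arrays was 0.144 with shLUC and 0.129 with shROR2. Its standard error also draws on the basal arrays, where it read 0.0269 to 0.0817 with shLUC and 0.114 to 0.245 with shROR2. Cited1, a co-activator of the estrogen receptor, read 53.2, 59.6 and 57.6 and 85.3 and 85.6, and Tbx3, a transcription factor of the hormone-sensing lineage, 1.38, 1.75 and 1.85 and 3.1 and 2.62. Pgr, the progesterone receptor, was slightly higher, 1.45, 1.35 and 1.32 against 1.77 and 1.87, whereas Esr1, the estrogen receptor, overlapped at 2.88, 2.89 and 2.96 against 2.81 and 3.17.
Milk and alveolar genes split. Lalba, the alpha-lactalbumin subunit of lactose synthase, had one of the wide gaps of the comparison, 7.97, 8.25 and 7.55 with shLUC against 22.4 and 26 with shROR2 (1.61 ± 0.28, adjusted p = 0.211). In the opposite direction, the caseins Csn1s1 (34.1, 37.8 and 33.8 against 22.8 and 24.4) and Csn2 (11.4, 14.3 and 11.3 against 9.77 and 9) were lower on both shROR2 arrays, with differences of -0.58 ± 0.28 and -0.39 ± 0.41. Elf5, the transcription factor of the alveolar lineage, was higher at 2.07, 1.75 and 1.94 against 2.96 and 2.73, and Hey1, a Notch target of luminal progenitors, at 2.36, 2.45 and 2.24 against 3.72 and 4.32. Lypd3 was lower, 9.6, 9.74 and 9.09 against 7.6 and 7.625. Among 22 progenitor and alveolar genes 6 lay above and 7 below, around a median of 0.037.

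Most genes of the pathway in which Ror2 acts showed small differences, with quartiles at -0.13 and 0.092 and a range from -1.32 to 0.61. Of 29 noncanonical Wnt and planar polarity genes tested, 0 were called, 1 lay above all shLUC arrays and 4 below (3.45% and 13.8%, against 14.4% and 14.6% of all features), with a median of -0.061. Among the ligands, Wnt5a read 21.6, 19.3 and 20.4 with shLUC and 17.3 and 17.2 with shROR2, a difference of -0.24 ± 0.14 (adjusted p = 1). Wnt5b, which was chosen after its values were seen, read 22.05, 20.8 and 21.4 and 17.5 and 16.6 (-0.33 ± 0.24). In both genes the groups did not overlap. Wnt4, the ligand that acts downstream of progesterone, overlapped at 0.584, 0.571 and 0.509 against 0.482 and 0.629.
Among the receptors, Ryk, an atypical Wnt receptor, was not well above background on either shROR2 array (0.211, 0.1595 and 0.108 against 0.0543 and 0.07025), at least 1.34-fold lower, and Ror1, the other member of the Ror family, was well above background only there (0.138, 0.133 and 0.145 against 0.243 and 0.182), at least 1.52-fold higher. Neither was called (adjusted p = 0.328 and 0.618), and both probes lie close to background. The fitted difference of Ryk was -1.32 ± 0.28, the lowest of the list, and it was -0.25 after normexp. Dvl2, a Dishevelled adaptor, read 0.763, 0.837 and 0.692 with shLUC and 0.674 and 0.477 with shROR2.
Probes of the ROCK kinases downstream differed in direction. The tested probe of Rock1 read 2.66, 2.57 and 3.065 against 2.4 and 2.48 and that of Rock2 3.22, 3.16 and 3.15 against 3.16 and 3, with differences of -0.18 ± 0.13 and -0.05 ± 0.14. A second Rock1 probe was higher, 0.444, 0.363 and 0.457 against 0.459 and 0.575 (0.29), and a second Rock2 probe lower, 3.36, 3.67 and 3.42 against 2.39 and 2.775 (-0.43). Of 35 genes of the RhoA and ROCK pathway, 7 lay above and 8 below all shLUC arrays, around a median of 0.012, which turned to -0.0068 under the other background correction. The small GTPase gene Rac1 was among the lower ones, 169, 145 and 150 against 120 and 117 (-0.39 ± 0.14, adjusted p = 0.759). A second Rac1 probe overlapped, 27.8, 30.9 and 27.15 against 26.7 and 28.2 (-0.06). Of 20 targets of serum response factor and YAP, 9 lay above (45%) and 4 below, the higher ones including Myl9, Acta2 and Axl (0.662, 0.671 and 0.4445 against 1.17 and 0.974). Of 18 Wnt/beta-catenin targets, 2 lay above and 4 below, at a median of -0.042; Ccnd1, which encodes cyclin D1, was higher at 3.08, 3.23 and 2.86 against 4 and 3.96, and Tcf7l1, a repressor of the pathway, lower at 0.574, 0.748 and 0.567 against 0.453 and 0.41.

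On the lower side the smallest adjusted p among all features was 0.0533, that of an unnamed probe, A_55_P2004208, with a difference of -1.11 in luminal and -1.05 in basal cells (adjusted p = 0.00895 there). Among named genes, Gja1, the gap junction protein connexin 43, read 3.49, 3.15 and 2.98 with shLUC and 2.08 and 2.175 with shROR2 (-0.59 ± 0.11, adjusted p = 0.288). Smc3, a core subunit of the cohesin ring, read 2.11, 2.37 and 2.48 and 1.21 and 1.49 (-0.78 ± 0.16, adjusted p = 0.324).
Cpe, the prohormone-processing carboxypeptidase E, went from 4.24, 5.18 and 4.81 to 3.1 and 2.52, and a second probe of it from 3.51, 4.32 and 3.78 to 2.42 and 2.12. Hp, haptoglobin, a plasma protein, went from 16, 17.1 and 17.8 to 9.84 and 9.63. Ubd, a ubiquitin-like modifier, read 0.414, 0.62 and 0.467 and 0.228 and 0.271. For Cbln4, a secreted synaptic organizer, the shROR2 arrays were not well above background (0.306, 0.2375 and 0.183 against 0.102 and 0.0623), at least 2.07-fold lower. None of these was called.
None of the cohesin, condensin or cell cycle genes was called. Of 14 cohesin and condensin genes, 6 lay below all shLUC arrays (42.9%, against 14.6% of all features) and 0 above. Of 29 cell cycle and DNA replication genes, 10 lay below (34.5%) and 2 above, at a median of -0.18. Rrm2, the small subunit of ribonucleotide reductase, read 0.816, 0.9505 and 0.648 with shLUC and 0.442 and 0.366 with shROR2 (-0.98 ± 0.25, adjusted p = 0.468), and the large subunit Rrm1 3.67, 3.3 and 2.91 and 2.31 and 2.39. In basal cells the median of the cell cycle list was 0.17; the difference between compartments was not called for any of its genes.

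Lists of other cell types of the gland had more members above than below all shLUC arrays, and 0 of their members were called. Of 19 macrophage and leukocyte markers tested, 13 lay above all shLUC arrays (68.4%) and 0 below, at a median of 0.71. C1qc, a complement subunit made by macrophages, read 1.96, 2.095 and 2 with shLUC and 3.66 and 4.4 with shROR2 (0.99 ± 0.21, adjusted p = 0.324). Aif1, a macrophage calcium-binding protein, read 1.81, 1.605 and 2.12 and 3.35 and 3.41, and Lyz1, a lysozyme, 1.53, 1.71 and 1.685 and 2.92 and 2.73. Of 10 genes of MHC class II antigen presentation, 6 lay above (60%) and 0 below; the invariant chain Cd74 read 26.4, 27.9 and 25.4 and 42.3 and 36.5.
Among 17 endothelial markers 9 lay above (52.9%) and 0 below, at a median of 0.80, with Plvap, a component of endothelial diaphragms, at 1.44, 1.96 and 1.45 against 3.76 and 3.085. Fabp4, a fatty acid binding protein of adipocytes and capillaries, read 5.6, 6.56 and 5.25 and 10.4 and 12.3 (0.98 ± 0.16, adjusted p = 0.16), and 4 of 8 adipocyte markers lay above with 1 below. Hba-a1, an alpha globin of red blood cells, read 4.39, 4.165 and 3.68 and 9.04 and 6.18, and 6 of 9 erythroid and muscle markers lay above with 0 below. Of 9 pericyte markers 5 lay above and 1 below.
Summed signals are given without the brightest member of each list. The leukocyte sum was 66.7 to 69.8 with shLUC and 87.35 to 89.75 with shROR2, the class II sum 37.5 to 40.95 and 53.1 to 54.7, the endothelial sum 13.25 to 13.5 and 16.8 to 17.65 and the pericyte sum 4.82 to 5.16 and 6.01 to 6.92. The brightest members can change this order: with Itgam the leukocyte sums overlapped (484 to 511 and 503 to 532), and with Mcam the pericyte sum was lower with shROR2 (951 to 1080 and 934 to 949). On basal shLUC arrays the sums with Itgam and with Mcam were 416 to 492 and 841 to 1030, overlapping those on luminal shLUC arrays. General luminal markers, for comparison, summed to 362 to 372 and 366 to 391. Well above background on at least 1 luminal array were 20 of 21 leukocyte, 10 of 10 class II, 15 of 17 endothelial, 8 of 10 pericyte, 7 of 12 adipocyte and 9 of 13 erythroid and muscle markers. Those that were not include Sox17 and Sox18 of endothelium, Pdgfrb and Des of pericytes, and Adipoq, Retn, Cfd, Lep and Car3 of adipocytes. The part of other cell types in the differences of this section, and in those of the matrix genes, was not tested. Under the other background correction the median was 0.35 for leukocyte, 0.37 for class II, 0.23 for endothelial, 0.16 for adipocyte and 0.11 for erythroid and muscle markers.

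**Figure D3:**
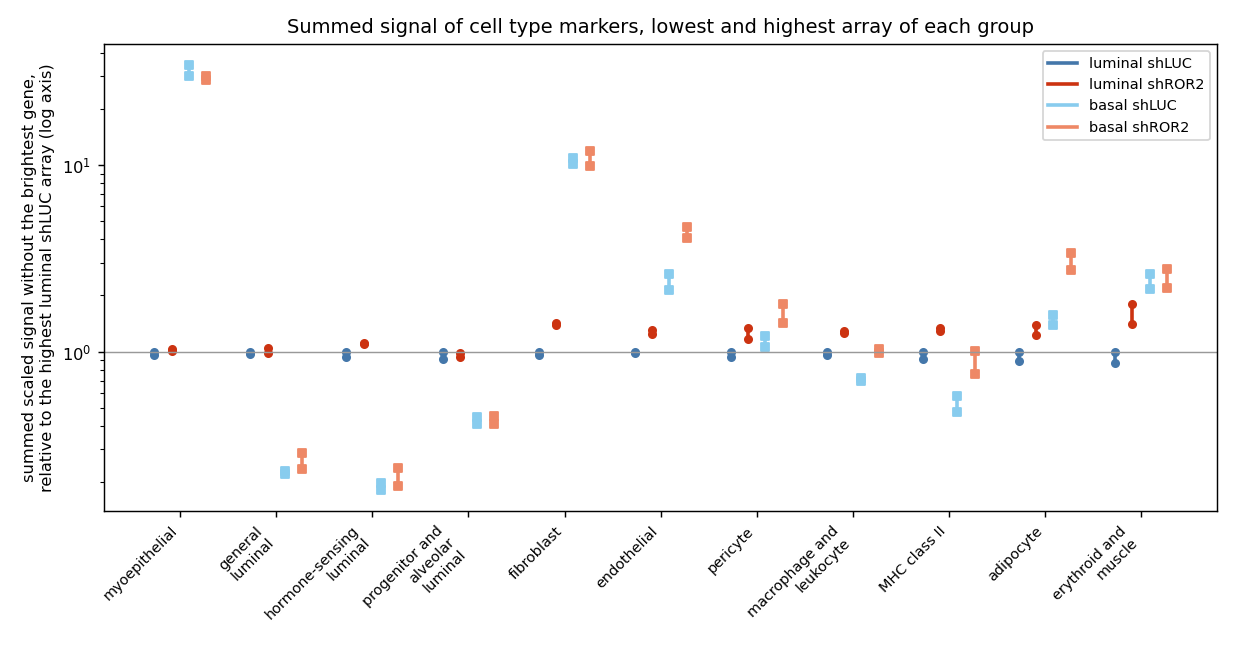
Summed scaled signal of 11 marker lists without each list's brightest gene, from the lowest to the highest array of each group, relative to the highest luminal shLUC array (log axis). Luminal shROR2 lies above luminal shLUC in all lists except the general luminal and the progenitor and alveolar lists, where the groups overlap. Both hairpin groups stay far from the basal arrays in the myoepithelial and luminal lists.

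Stress and early response genes lay above all shLUC arrays more often than below, and 0 were called. Of 20 immediate early genes, which are switched on within minutes of stimulation or of tissue handling, 12 lay above all shLUC arrays (60%) and 0 below, at a median of 0.18. Btg2, an antiproliferative member, read 4.1, 4.62 and 4.435 with shLUC and 9.1 and 7.19 with shROR2 (0.89 ± 0.13, adjusted p = 0.155), and Fosb 242, 249 and 245 and 324 and 303.5. Atf3, a stress-induced transcription factor, read 16.4, 17 and 16.2 and 20.9 and 20.2. Of 14 heat shock genes, 7 lay above (50%) and 0 below, each by a small amount (-0.021 to 0.25 over the list), with the co-chaperone Dnajb1 at 72, 75.9 and 72.8 against 87.5 and 87.2. The part of handling before RNA isolation was not tested.
Among 23 NF-kappaB and acute-phase genes, 8 lay above and 3 below, at a median of 0.053. Hp, given above, was one of the lower members (-0.80 ± 0.22, adjusted p = 0.537). Il6, the cytokine interleukin 6, read 0.777, 0.741 and 0.6225 with shLUC and 1.435 and 1.81 with shROR2 (1.18 ± 0.21, adjusted p = 0.211), and Socs3, a feedback inhibitor of STAT3 signalling, 9.29, 10 and 11.3 and 13 and 14. Interferon and MHC class I genes did not share the direction: 5 of 24 lay above and 4 below, at a median of -0.099, and B2m, the light chain of class I molecules, was lower at 78.7, 80.6 and 79.8 against 63.6 and 60.4 (-0.36 ± 0.10, adjusted p = 0.561).
Other lists gave the following counts above and below all shLUC arrays. Hypoxia and glycolysis genes had 10 and 1 of 23, with Slc2a1, the glucose transporter GLUT1, at 31.2, 29.8 and 33.6 against 38 and 38.1. Lipid synthesis genes had 10 and 0 of 23, with Scd2, a fatty acid desaturase, at 1.61, 1.64 and 1.45 against 3 and 2.24. Targets of p53 had 8 and 2 of 18, with Cdkn1a, the cell cycle inhibitor p21, at 3.76, 3.835 and 3.52 against 5.48 and 4.32. Notch genes had 6 and 3 of 19, with Numb, an inhibitor of Notch, lower at 1.55, 1.42 and 1.29 against 0.962 and 1.085. Numbl, of the same list, was higher at 0.377, 0.527 and 0.57 against 0.932 and 0.789. Cell junction genes had 4 and 6 of 29. Branching growth factor genes had 3 and 6 of 26, with Ntn1, the guidance factor netrin 1, lower at 24.1, 19 and 23.3 against 14.5 and 14.8; its second, dimmer probe overlapped.

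**Figure D4:**
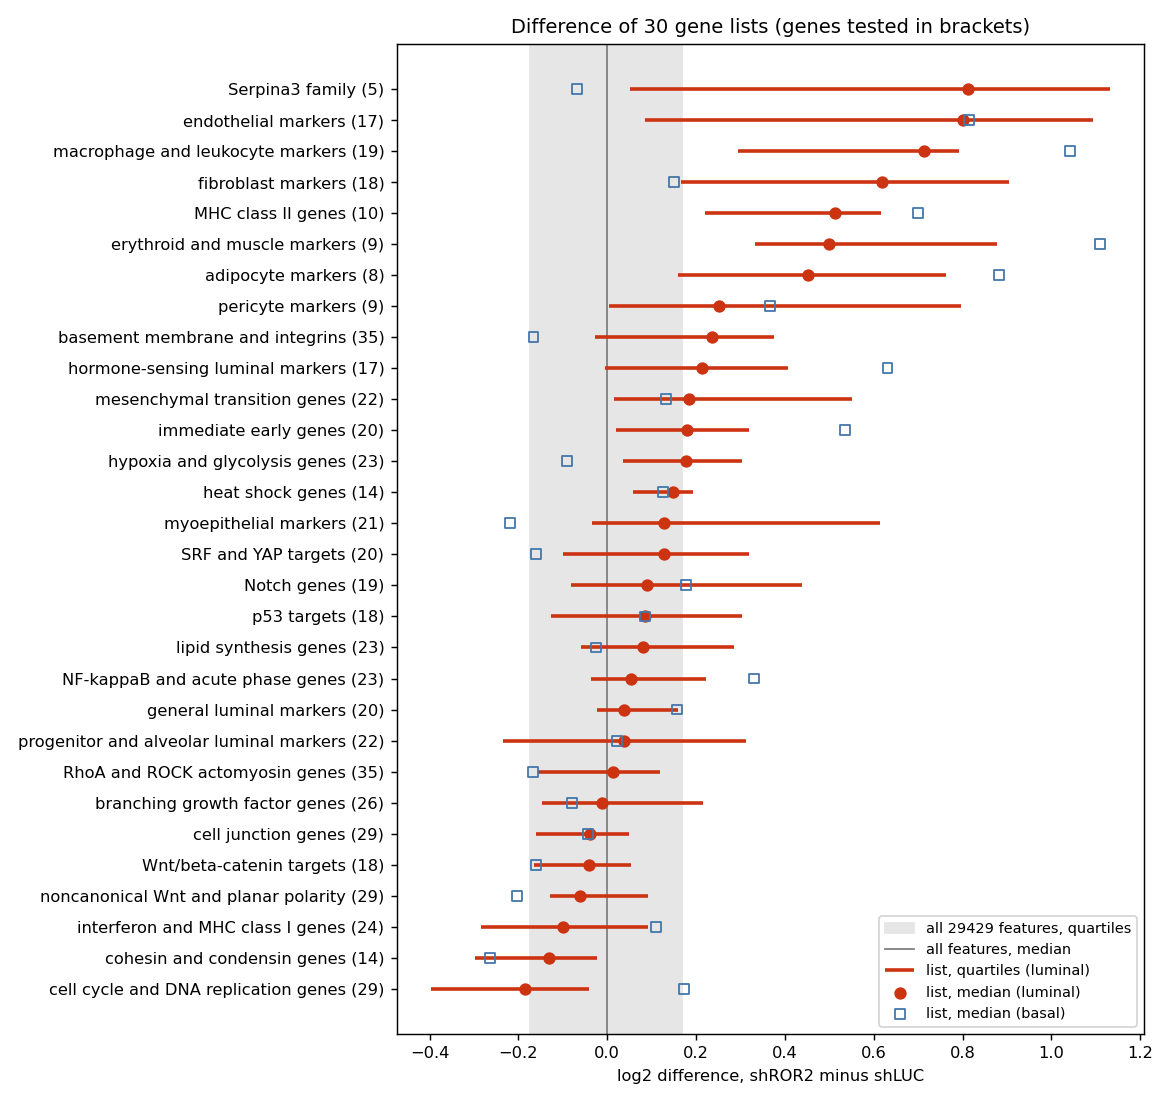
Median (circle) and quartiles (line) of the luminal log2 difference for 30 gene lists, with the basal median as an open square and the quartiles of all 29429 features as a grey band. Medians run from 0.81 for 5 Serpina3 genes and 0.80 for endothelial markers to -0.18 for cell cycle genes.

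Some luminal differences had a counterpart in basal cells and some did not. Both hairpin contrasts use different arrays, although they share slides and the labels do not say which luminal and basal samples came from one outgrowth. In basal cells 284 features were called (0.965%). Of the 113 called higher there, 78 (69%) lay above all shLUC arrays in luminal cells and 7 (6.19%) below, at a median luminal difference of 0.40. Of the 171 called lower there, 60 (35.1%) lay below and 19 (11.1%) above, at a median of -0.13. Among genes described above, Lalba, Btg2, Fosb, Atf3, C1qc, Aif1, Lyz1, Cd74, Plvap and Fabp4 were also called higher in basal cells (0.86 to 1.715). Lypd3 was called lower there (-0.57). Basal list medians were 1.04 for leukocyte, 0.70 for class II and 0.535 for immediate early genes (luminal 0.71, 0.51 and 0.18). For hormone-sensing markers the basal median was 0.63 (luminal 0.21), and for fibroblast markers it was 0.15 (luminal 0.62).
Akap12, a scaffold protein of kinase A, was higher in both, 3.08, 2.89 and 2.68 with shLUC and 6.2 and 6.41 with shROR2 in luminal cells (1.13 ± 0.15, adjusted p = 0.11) and 1.02 in basal cells (adjusted p = 0.0185); a second, dimmer probe overlapped in luminal cells. Xlr3b, an X-linked gene of the Xlr family, read 0.424, 0.329 and 0.421 and 1.27 and 1.04 (1.56 ± 0.20, adjusted p = 0.11) with 1.29 in basal cells (adjusted p = 0.02195). Cst3, the protease inhibitor cystatin C, read 46.8, 45.4 and 44.6 and 82.4 and 73.6 in luminal cells (0.77 ± 0.12, adjusted p = 0.155) with 0.42 in basal cells (adjusted p = 0.105).
Genes with a luminal difference and little in basal cells were tested by the difference between compartments. Of 29429 features 0 were called (0%; 2440 features, 8.29%, at an unadjusted p under 0.05 in limma). The closest named here were Fstl1 (1.49 ± 0.19, luminal minus basal, adjusted p = 0.0891), Snai2 (0.0891), Myl9 (0.1215) and Serpina3f (0.1215). No luminal difference can therefore be called particular to luminal cells at this threshold.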

How the data were processed

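RNA of sorted luminal and basal cells was amplified, labelled with Cy3 and read on 11 one-colour Agilent arrays of 59305 non-control spots (55681 probes), per the labels' protocols. The deposited scanner files hold intensity values that Agilent Feature Extraction had background-subtracted and detrended within each array, per the file headers; the authors' series table holds intensity values whose column medians lay at 88.8 to 89.3, with normalization not given in the sources used here and unit linear, not centred.

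From the processed intensity, flagged outlier spots were dropped, spots of a probe averaged, log2 taken and each array's 75th percentile subtracted. Probes well above background on at least 3 arrays were kept, the brightest probe per gene was used, and 4 group means were fitted with limma 3.58.1 (lmFit, eBayes) in R 4.3.3 over all 11 arrays, two-sided, Benjamini-Hochberg, called under 0.05. Fits were tested on simulated data. Of the probes, 26582 were named through RefSeq accessions (GRCm38.p6, used for names and promoters because the array annotation is mm9) and 29099 kept their probe name. Figures used matplotlib 3.10.9 in Python 3.11.15, and promoter alignments Biopython 1.88.

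Members and gene lists were chosen with earlier results of these data known. Genes named are those called, the 15 non-overlapping genes with the smallest p in each direction, up to 3 per list, and 14 fixed ones; a few of these are not reported here. Alternatives were other scalings, background correction (normexp, offset 50, on median signals), the authors' table, filters, array subsets, weights, probes, slide and replicate blocks, and leaving out each array. Each slide holds both hairpins.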

Additional observations from a re-analysis of the deposited data

How the results depend on the processing

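The number of luminal features called, 1 in the main fit, depended on the processing. It was 1 when the percentile was taken over probes above background on all arrays and when each probe was tested on its own. It was 5 after quantile normalization, 22 after normexp, 21 in the authors' table, 3 with no filter, 6 with a filter on luminal arrays and 62 with array weights. It was 0 after median scaling, with the 5 luminal arrays only, without the basal shROR2 arrays and with slide as a block. Leaving out 1 array gave 0 to 10 calls: 6 without luminal shROR2 replicate 1, 10 without basal shROR2 replicate 2, 1 without basal shROR2 replicate 1 and 0 otherwise. Of the 21 calls in the authors' table, 15 were also among the 62 with array weights. The difference between compartments had 0 calls in the main fit, 2 after quantile normalization, 1 after median scaling, 7 after normexp, 7 in the authors' table and 0 to 8 when 1 array was left out. The cause of these changes was not tested.

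With the replicate number as a block the luminal count was 0 and the Ror2 difference 0.69. Same-numbered arrays deviated together at -0.09 to 0.11. This cannot decide whether the numbers pair the samples, because deviations within such small groups are tied to each other and numbers and slides overlap. Ror2's difference stayed above 0, from 0.0057 after normexp to 0.73 after quantile normalization, and from 0.0021 to 1.34 when 1 array was left out.

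Named genes kept their direction except 4 with differences near 0. Krt8 turned to 0.0015 after median scaling, 0.0066 with slide as a block and 0.014 without luminal shLUC replicate 3 (-0.021 to 0.014 when 1 array was left out). Wnt4 turned to 0.0016 after median scaling, 0.0044 after quantile normalization, 0.047 with the replicate block, and lay at -0.20 to 0.18 when 1 array was left out. Esr1 turned to -0.024 with the replicate block and -0.049 without luminal shROR2 replicate 2 (-0.049 to 0.12 when 1 array was left out), and Krt14 to 0.13 without that array (-0.32 to 0.13). Fstl1 and Myl9 were past the threshold in 6 of 24 alternatives each, Snai2 and Col9a1 in 4, and Acta2, Akap12, Btg2, Cst3, Fabp4 and Lalba in 3. Calca was past it in 2, after normexp and in the authors' table. List medians changed sign only for RhoA and ROCK genes (4 of 20 alternatives) and, in 1 each, for branching, junction, interferon, p53 and alveolar genes. Of 118 named genes, 52 differences moved by over 1.5 times after normexp (50 of them smaller) and 55 in the authors' table (53 smaller), among them Xlr3b (0.79 after normexp), Itga8 (0.59), Axl (0.48), Il6 (0.76), Elf5 (0.34) and Rrm2 (-0.54); 0 changed sign. Probes near background, such as those of Ror2, Snai2 and Ryk, are limited by signal over background.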
